A study of Mus musculus with 6 samples.

Results

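Immediate early genes are switched on within minutes of neuronal firing, before any new protein has been made, and 33 of them were followed here in mouse hippocampus. The 33 genes were chosen by name, though with earlier results of these data known. Each was read from its brightest probe set, by the mean over the 6 arrays, among those annotated to that gene alone. All 33 were measured, out of 18193 genes with such a probe set. Cyr61 is annotated under its newer name Ccn1.

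The series holds 6 Affymetrix arrays, 1 per mouse, and its title ties the mice to Potocki-Lupski syndrome, a human disorder of development in which a stretch of a chromosome is duplicated. The duplication group was 3 Dp(11)17/+ mice, in which part of chromosome 11 is present once more than normal, and the wild-type group was 3 +/+ mice. All 6 were labelled as males of 11 to 14 weeks on the C57BL/6-Tyr c-Brd background, killed by cervical dislocation. None of the 33 genes lies on chromosome 11. No source used here gives the time of day, the handling of the animals or the interval before dissection. Nor do the labels give a litter or cohort, so these and genotype cannot be told apart.

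Calcium entering a firing neuron activates kinases that act on CREB, SRF and MEF2, which are already bound to DNA. Their first targets include transcription factors of the AP-1, EGR and NR4A families, brakes such as the dual-specificity phosphatases, and proteins that act at the synapse, such as Arc. In the hippocampus these genes are widely used as marks of recently active cells, and many of them also respond to growth factors and stress in other cell types.

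Stretches around the start sites of 7 members are shown, chosen with their values known, because these genes carry the pattern described below or depart from it. Each runs from 250 bases before to 50 bases after a RefSeq start site, 5′ to 3′, from RefSeq with build GRCm38.p6. Capitals mark TGACG on either strand, the core of the cAMP response element bound by CREB, and the CArG box bound by SRF. The first 5 belong to genes that varied widely or moved with Fos between mice, and the last 2 to genes whose groups did not overlap.
Fos (chr12:85473640-85473939, plus strand): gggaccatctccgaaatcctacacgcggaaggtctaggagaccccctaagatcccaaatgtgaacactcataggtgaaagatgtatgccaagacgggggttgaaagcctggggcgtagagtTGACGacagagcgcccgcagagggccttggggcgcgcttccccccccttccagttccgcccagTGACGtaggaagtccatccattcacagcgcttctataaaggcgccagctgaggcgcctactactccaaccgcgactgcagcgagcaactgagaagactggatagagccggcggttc
Nr4a1 (chr15:101266596-101266895, plus strand): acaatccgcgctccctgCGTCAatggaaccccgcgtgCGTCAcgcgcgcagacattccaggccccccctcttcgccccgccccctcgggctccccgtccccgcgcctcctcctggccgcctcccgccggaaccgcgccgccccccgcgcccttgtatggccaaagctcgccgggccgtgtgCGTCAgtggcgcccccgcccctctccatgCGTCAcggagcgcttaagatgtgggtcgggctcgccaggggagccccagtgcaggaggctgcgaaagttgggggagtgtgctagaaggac
Dusp1 (chr17:26508423-26508722, minus strand): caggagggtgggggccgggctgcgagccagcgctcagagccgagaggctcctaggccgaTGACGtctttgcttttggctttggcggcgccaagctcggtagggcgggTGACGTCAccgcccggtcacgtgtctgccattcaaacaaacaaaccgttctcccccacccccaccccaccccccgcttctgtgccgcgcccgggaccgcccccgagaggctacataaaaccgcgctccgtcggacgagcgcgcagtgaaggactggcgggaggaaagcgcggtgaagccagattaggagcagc
Egr2 (chr10:67537619-67537918, plus strand): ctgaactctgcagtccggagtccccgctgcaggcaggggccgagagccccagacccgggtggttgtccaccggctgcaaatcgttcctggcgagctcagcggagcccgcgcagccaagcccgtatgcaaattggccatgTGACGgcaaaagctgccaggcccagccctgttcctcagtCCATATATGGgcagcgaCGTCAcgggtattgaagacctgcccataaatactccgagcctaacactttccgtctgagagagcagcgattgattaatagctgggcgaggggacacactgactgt
Npas4 (chr19:4989922-4990221, minus strand): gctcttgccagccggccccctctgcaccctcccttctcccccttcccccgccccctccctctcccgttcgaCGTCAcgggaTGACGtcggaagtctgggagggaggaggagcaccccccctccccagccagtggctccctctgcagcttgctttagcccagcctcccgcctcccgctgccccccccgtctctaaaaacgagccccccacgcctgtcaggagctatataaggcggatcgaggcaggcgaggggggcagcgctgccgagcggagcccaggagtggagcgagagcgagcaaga
Nr4a3 (chr4:48045055-48045354, plus strand): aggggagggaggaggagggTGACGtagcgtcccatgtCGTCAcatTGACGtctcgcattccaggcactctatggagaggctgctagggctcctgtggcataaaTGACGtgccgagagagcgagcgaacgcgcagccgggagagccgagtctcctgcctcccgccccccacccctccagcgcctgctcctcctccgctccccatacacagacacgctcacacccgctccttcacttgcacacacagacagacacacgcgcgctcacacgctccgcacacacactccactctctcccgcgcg
Fosl2 (chr5:32136222-32136521, plus strand): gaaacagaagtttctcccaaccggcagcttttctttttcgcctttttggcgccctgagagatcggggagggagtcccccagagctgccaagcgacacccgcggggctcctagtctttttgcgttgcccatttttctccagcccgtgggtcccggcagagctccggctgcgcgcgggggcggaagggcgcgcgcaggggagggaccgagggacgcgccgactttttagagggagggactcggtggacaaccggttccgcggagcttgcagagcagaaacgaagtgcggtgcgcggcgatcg

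Promoters were searched for 27 of the 33 members, 32 promoters in all, and TGACG was present in at least 1 promoter of 20 of them. Egr1, Egr3, Arc, Ier2, Nptx2 and Vgf were not among the members searched. Of all 32851 promoters, 20.8% held it, and of the 14452 measured genes with a promoter 30% did. The Nr4a1 and Nr4a3 windows shown each held 4 matches, those of Fos, Npas4 and Egr2 2 each, that of Dusp1 3, and that of Fosl2 0. Egr2 has further start sites, and its windows beginning at chr10:67535249 and chr10:67537316 held 0 matches. The former also held 0 CArG boxes. The full element TGACGTCA, which contains the core on both strands, was present in Btg2, Dusp1 and Plk2, and in 2.92% of measured genes. Within these windows the CArG box was present in Dusp5, with 2 neighbouring matches, and in Egr2, and in 1.58% of measured genes. TGANTCA, the site of AP-1 itself, was present in 0 of the 27 and in 7.54% of measured genes. These matches describe letters within 300 bases, not binding. Sites farther from the start were not searched, so a window without a match does not show that the gene lacks the site.

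Facts about single arrays bear on what follows. Duplication replicate 1, labelled male, had a log2 value of 9.13 for Xist, the RNA of the inactive X chromosome of females, against 3.06 to 3.69 in the other 5 mice, and its Y-linked Eif2s3y stood at 2.48 against 5.41 to 6.01. In duplication replicate 3 the labelled tissue did not match its markers in full: the mean of 5 dentate granule cell markers was 3.69 on the log2 scale, against 5.30 to 7.60 in the other 5 mice, and that of 9 striatal markers was 7.27 against 5.01 to 6.35. Thalamic and habenular markers, 8 in all, averaged 7.07 in that mouse against 4.40 to 5.03 in the rest. Duplication replicate 1 leaned likewise, at 5.30 for dentate (wild type, 6.42 to 6.83) and 6.35 for striatal markers (wild type, 5.01 to 5.71). Duplication replicate 2 did not, at 7.60 and 5.09. Duplication means exceeded wild-type ones in 0 of 5 dentate, 0 of 6 CA1, 9 of 9 striatal and 8 of 8 thalamic markers. Results are therefore also given without duplication replicate 1 and without duplication replicate 3. In whole tissue, fewer cells of a type and less RNA per cell cannot be told apart. The 3′ minus 5′ difference of the actin control probes, a sign of RNA quality, ranged from 1.45 to 1.74.

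The immediate early genes differed between mice more than most genes did, and this spread lay within each genotype. Values are log2 of signal, so a difference of 1 is a change of 2-fold. The median range between the highest and lowest mouse was 1.0 for the 33 members and 0.37 over all 18193 genes. A range above 1 was seen for 17 of the 33, against 6.31% of all genes, and a range above 2 for 5 of the 33 (Fos, Egr2, Arc, Dusp1 and Nr4a3), against 1.12%. The median SD was 0.40 among the wild-type mice and 0.41 among the duplication mice for the members, and 0.12 in each group over all genes. Of the 33, 21 had a mean log2 value of 6 or more, a level used here to mark probe sets that are not dim. The range was above 1 for 9 of these 21 and above 2 for 4, against 7.91% and 1.35% of the genes at that level, so the spread was not confined to dim probe sets.

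**Figure D1:**
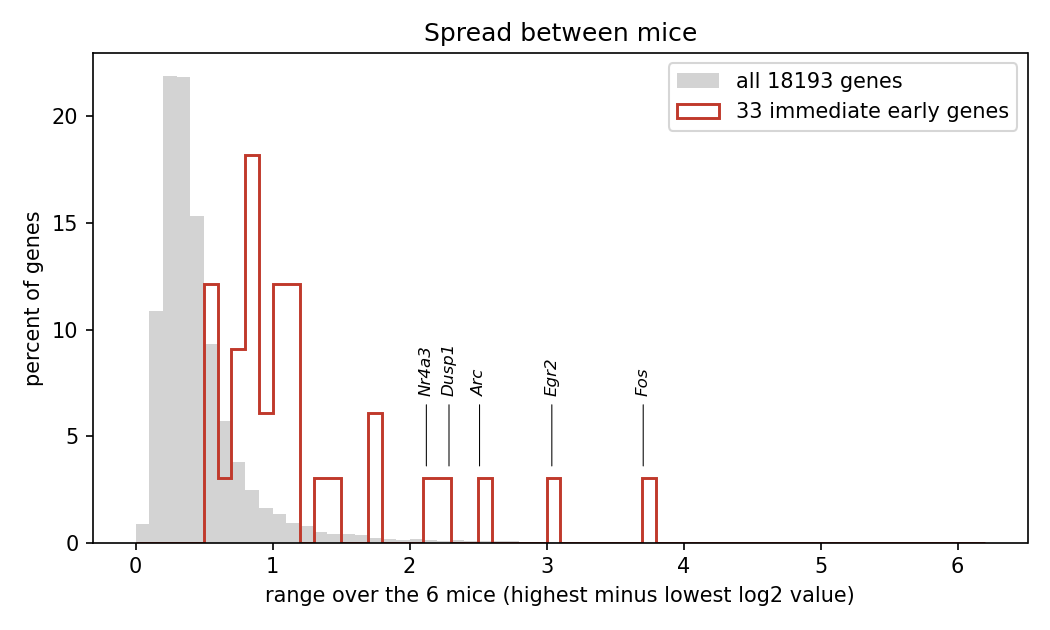
Percent of genes (vertical axis) by the range over the 6 mice, highest minus lowest log2 value (horizontal axis), for all genes in grey and the 33 immediate early genes as a red outline. The 5 members named lie above 2, where 1.12% of all genes lie.

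Fos, which pairs with Jun proteins to form AP-1, had the widest range of the 33. Its log2 values were 8.62, 5.31 and 8.51 in duplication replicates 1, 2 and 3 and 9.01, 7.62 and 6.38 in wild-type replicates 1, 2 and 3. The lowest and the highest mouse differed 13-fold, and the 3 wild-type mice alone spanned 6.21-fold. Duplication replicates 1 and 3 and wild-type replicate 1 were high, duplication replicate 2 was lowest, and the groups overlapped.

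Egr2, a zinc finger factor read by a dim probe set with a mean of 4.90, is given here after its values were seen, because its range of 3.04 was second to that of Fos. It had values of 6.21, 3.17 and 5.90 in the duplication mice and 5.94, 4.78 and 3.36 in the wild-type mice. Again duplication replicates 1 and 3 and wild-type replicate 1 were high. Its second probe set, which did not enter the choice, placed the same 3 mice highest, at 4.26, 4.35 and 4.38, and the others between 2.83 and 3.70.

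Arc, which organises the internalisation of AMPA receptors at active synapses, had values of 8.49, 6.76 and 8.96 in the duplication mice and 9.07, 6.56 and 6.67 in the wild-type mice. The 6 values fell into 3 high and 3 low ones, with nothing between 6.76 and 8.49, and each genotype stood on both sides. The wild-type mice spanned 5.70-fold. Dusp1, a phosphatase that switches off MAP kinases, had 8.26, 6.71 and 9.0 in the duplication mice and 8.65, 6.98 and 6.75 in the wild-type mice. It showed the same 3 mice high and the same 3 low as Arc.

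Nr4a1, an orphan nuclear receptor, stood at 8.19, 7.21 and 8.40 in the duplication mice and 8.92, 7.42 and 7.32 in the wild-type mice. Egr1, a zinc finger factor used as a marker of plasticity, stood at 10.78, 9.68 and 10.80 and at 10.83, 10.24 and 9.64. Junb, an AP-1 partner, stood at 6.48, 5.39 and 5.90 and at 6.70, 5.72 and 5.56. In each of these 3 genes duplication replicates 1 and 3 and wild-type replicate 1 were again the 3 highest mice. Npas4, a factor specific to neurons and tied to calcium entry, was dim, with 4.76, 4.07 and 4.95 in the duplication mice and 4.93, 4.01 and 3.83 in the wild-type mice. Its spread of 1.12 also set duplication replicates 1 and 3 and wild-type replicate 1 above the rest.

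**Figure D2:**
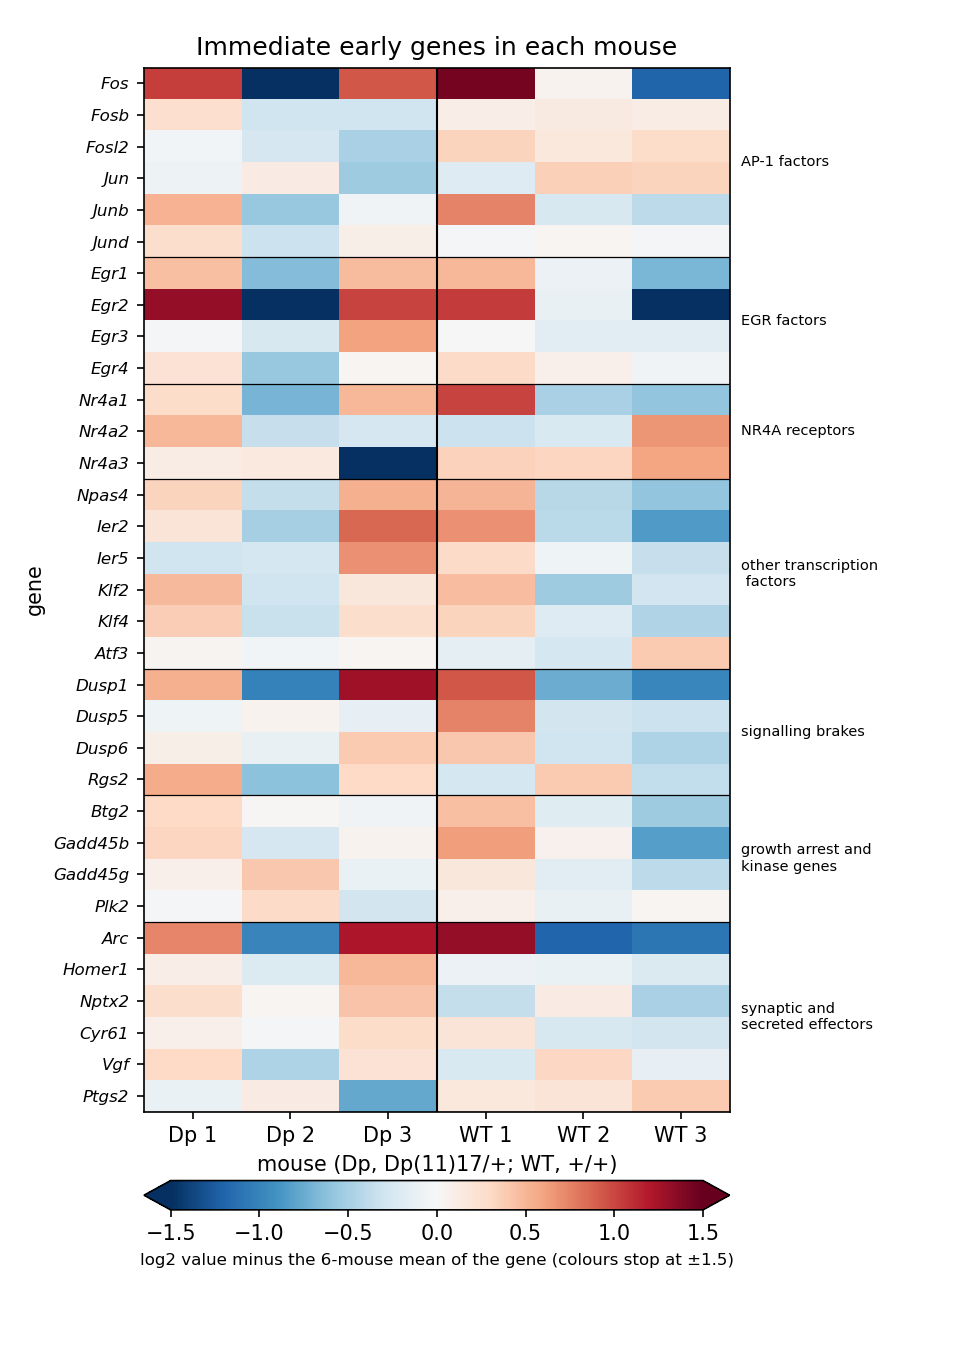
Each row is a gene, grouped by role, and each column a mouse (Dp, Dp(11)17/+; WT, +/+), coloured by the log2 value minus the 6-mouse mean of that gene. Red columns at Dp 1, Dp 3 and WT 1 and blue ones at Dp 2 and WT 3 recur in Fos, Egr1, Egr2, Nr4a1, Dusp1 and Arc, while Jun, Nr4a3 and Ptgs2 are bluest at Dp 3.

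Counted over all 33 members, duplication replicate 1 was among the 3 highest mice in 27 of them, wild-type replicate 1 in 25 and duplication replicate 3 in 21, against 45.6%, 48.2% and 45.6% of all genes. Wild-type replicate 2 was among the 3 highest in 13, wild-type replicate 3 in 8 and duplication replicate 2 in 5, against 53.4%, 57.9% and 49.1% of all genes. Wild-type replicate 1 was the highest of all in 11 of the 33, or 33.3%, against 11.3% of all genes. Duplication replicate 3 was highest in 8 (24.2%, against 18.4%), duplication replicate 1 in 6 (18.2%, against 10.6%) and wild-type replicate 3 in 4 (12.1%, against 26.1%). Duplication replicate 2 and wild-type replicate 2 were highest in 2 each (6.06%, against 16.8% for either). Wild-type replicate 3 was lowest in 13 (39.4%) and duplication replicate 2 in 12 (36.4%), against 15.1% and 18.6% of all genes. Duplication replicate 3 was lowest in 5 (15.2%, against 22.8%), wild-type replicate 2 in 3 (9.09%, against 13.7%), and duplication replicate 1 and wild-type replicate 1 in 0 (against 16.6% and 13.2%). The mean deviation of the 33 from their 6-mouse means was 0.28, -0.37 and 0.19 in duplication replicates 1, 2 and 3 and 0.35, -0.13 and -0.32 in wild-type replicates 1, 2 and 3. Over all genes it lay between -0.02 and 0.02. The shared variation therefore ran across the genotypes, with mice above and below the mean in both.

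As a description over the same 6 arrays, the median Pearson correlation between pairs of members was 0.31 over 528 pairs, and the median Spearman correlation 0.37. Over all pairs of the 7104 genes with a mean of 6 or more the medians were 0.03 and 0.03. For the 21 members at that level they were 0.24 and 0.26. Members measured on 1 array share its tissue and its normalization.

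By role, the median range was 1.72 for the 3 NR4A receptors, 1.12 for the 4 signalling brakes and 1.03 for the 4 EGR factors. The mean deviation of the EGR factors, to which the dim Egr2 gave much, was 0.49, -0.80 and 0.53 in the duplication mice and 0.46, -0.07 and -0.61 in the wild-type mice. The 4 signalling brakes, Dusp1, Dusp5, Dusp6 and Rgs2, gave 0.28, -0.42 and 0.46 and 0.45, -0.23 and -0.53. The NR4A receptors had another order, with 0.30, -0.30 and -0.43 and 0.35, -0.13 and 0.22. In duplication replicate 3 the AP-1 factors and the growth arrest and kinase genes were also below 0, at -0.06 and -0.09. The synaptic and secreted effectors and the other transcription factors were above 0 in that mouse, at 0.31 and 0.42. Dusp5 and Dusp6, which act on the kinase ERK, were highest in wild-type replicate 1, at 6.10 and 8.75, and lowest in wild-type replicate 3, at 5.03 and 7.88. Among other factors, Ier2 (a range of 1.71), Ier5 (1.03), Klf2 (1.02) and Klf4 (0.82) each had wild-type replicate 1 among the 3 highest mice. Klf2 and Klf4 are also known from the endothelium of blood vessels, and the mean of 8 endothelial markers ranged from 5.04 to 5.34 over the 6 mice. Gadd45b and Btg2, a DNA demethylation-linked gene and a growth inhibitor, were highest in wild-type replicate 1 (6.31 and 6.71) and lowest in wild-type replicate 3 (4.85 and 5.72). Their next brightest probe sets were also highest in wild-type replicate 1, at 5.76 and 6.04. The lowest mouse there was another, duplication replicate 2 for Gadd45b (4.64) and wild-type replicate 2 for Btg2 (5.60).

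Homer1, a scaffold of metabotropic glutamate receptors whose short form is the induced one, had 8.99, 8.68 and 9.39 in the duplication mice and 8.79, 8.79 and 8.67 in the wild-type mice. Duplication replicates 3 and 1 were highest, and wild-type replicates 1 and 2 were level. The files do not say which of its 6 probe sets reads the short form. Another of them, picked after its values were seen, read 5.38 and 5.45 in duplication replicates 1 and 3 and 4.40 to 4.88 in the other mice. Other members had another order. Rgs2, a brake on G proteins, ranged from 7.13 to 8.30 and Vgf, a secreted peptide precursor, from 8.28 to 9.05, and in both duplication replicates 1 and 3 and wild-type replicate 2 were the 3 highest. The striatal marker mean was also highest in those 3 mice, at 6.35, 7.27 and 5.71, against 5.01 to 5.14 in the others, and its part in these values was not tested. Fosb, a relative of Fos, was dim in every mouse, with 3.92, 3.37 and 3.38 and 3.77, 3.80 and 3.78. Atf3 and Cyr61, genes of injury and of the extracellular matrix, were also dim, with values of 3.00 to 3.65 and 3.57 to 4.12. Of these 2, Cyr61 had the same 3 highest mice as Fos.

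Jund, the AP-1 member with a steady supply, spanned 9.33 to 9.91 and Egr4 5.49 to 6.35, both lowest in duplication replicate 2. Egr3, a relative of Egr1, spanned 8.30 to 9.14 and was highest in duplication replicate 3, with wild-type replicate 1 and duplication replicate 1 next, at 8.54 and 8.52. Nr4a2, needed by dopamine neurons and present in cortex, was highest in wild-type replicate 3, at 8.70, with duplication replicate 1 at 8.54 and the others between 7.70 and 7.81. Its next brightest probe set put only duplication replicate 1 high, at 8.14 against 6.99 to 7.31. Plk2, a kinase that scales synapses down, and Gadd45g were highest in duplication replicate 2, at 9.43 and 6.68, the mouse that was lowest for Fos.

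The same 3 mice that were high for Fos and Arc were high for markers of the choroid plexus, the tissue that secretes cerebrospinal fluid next to the hippocampus. The mean of the 7 markers, all measured, was 6.15, 4.54 and 6.46 in duplication replicates 1, 2 and 3 and 7.24, 4.18 and 4.44 in wild-type replicates 1, 2 and 3, and in 7 of 7 markers duplication replicates 1 and 3 and wild-type replicate 1 were the 3 highest. Of the 7, 1 had a mean log2 value of 6 or more. The range of the list mean was 4.54 to 6.46 in the duplication group and 4.18 to 7.24 in the wild-type group. Its part in the values of the immediate early genes was not tested. The actin control difference was also highest in these 3 mice, at 1.69, 1.74 and 1.63, with wild-type replicate 2 at 1.62. The same difference for the GAPDH control probes was 0.47, 0.44 and 0.57 in these 3 mice and 0.33 to 0.38 in the other 3. The part of RNA quality in the result was not tested either. The mean of 5 neocortical markers was 6.59, 6.00 and 7.27 in the duplication mice and 6.60, 6.48 and 6.42 in the wild-type mice, so that it too was highest in these 3 mice and lowest in duplication replicate 2, and its part was not tested. Astrocyte markers, 7 of 7 measured, ranged only from 9.07 to 9.27.

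**Figure D3:**
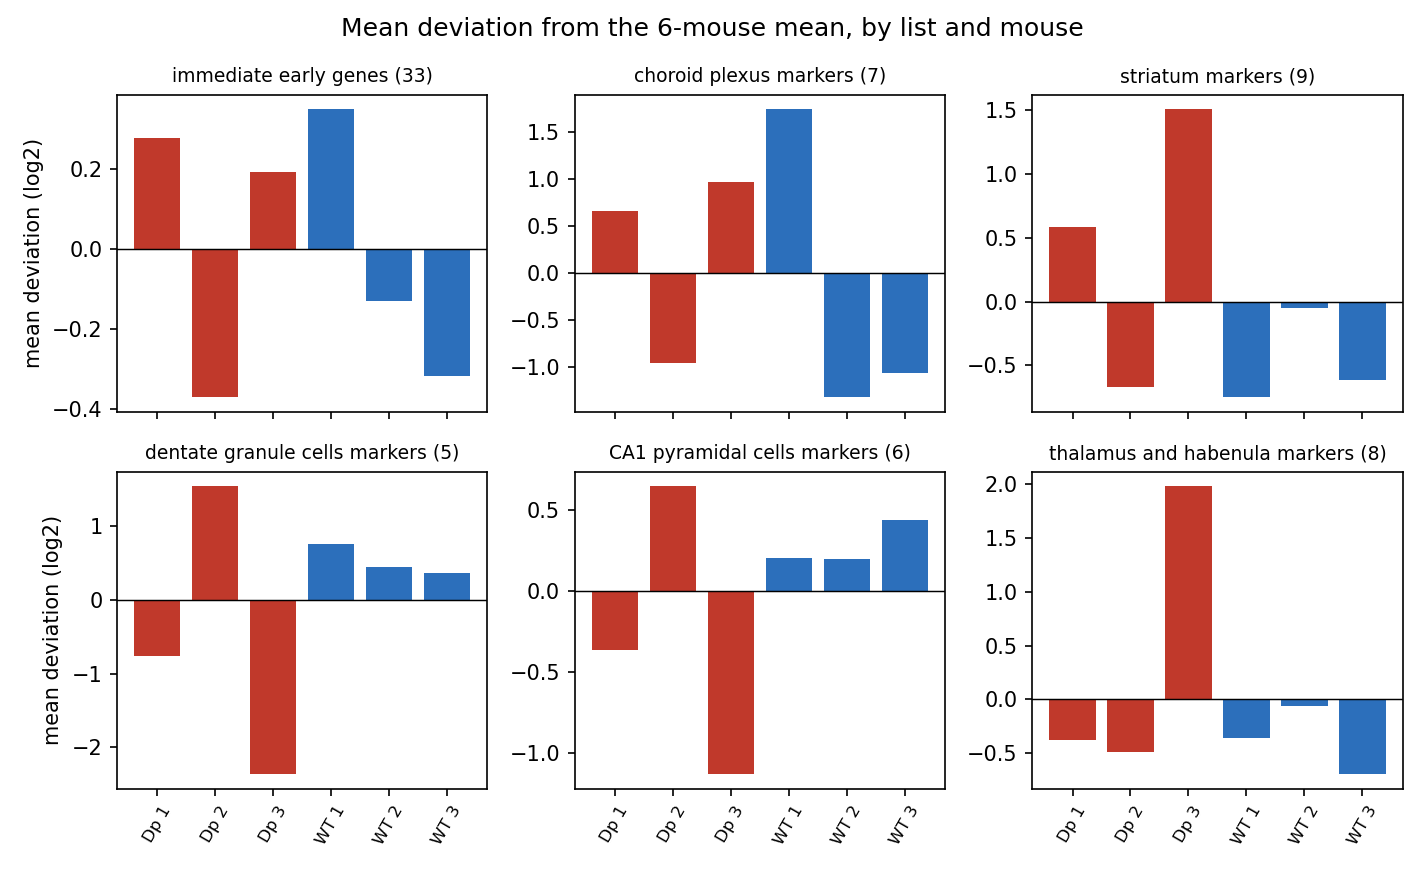
Bars give the mean deviation from the 6-mouse mean, on the log2 scale, in each mouse (red, Dp(11)17/+; blue, +/+) for the 33 immediate early genes and for 5 marker lists, with the number of genes in brackets; vertical scales differ between panels. The immediate early genes and the choroid plexus markers are both above 0 in Dp 1, Dp 3 and WT 1, while striatal and thalamic markers stand out in Dp 3.

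Dp(11)17/+ mice were then compared with +/+ mice. The tissue markers given above also differed between these groups, and the part of tissue makeup in this comparison was not tested. No immediate early gene passed the test of a difference between the genotypes. By limma with Benjamini-Hochberg adjustment over all 45037 probe sets, 0 of the 33 were called, with a smallest adjusted p of 0.994, and 0% of all probe sets were called. At an unadjusted p under 0.05 limma gave 2 of the 33, or 6.06%, against 3.17% of all genes. These were Fosl2, lower, and Nptx2, higher, where 2.01% of all genes were lower and 1.15% higher at that level. The plain equal-variance statistic gave 0 adjusted and 1 unadjusted, and its share over all genes is not given here, so that count cannot be set against a background. The median log2 fold change of the members was 0.09, with 22 of 33 higher in the duplication mice, against a median of -0.02 and 41.7% higher over all genes. The mouse-to-mouse spread set wide limits: the standard error had a median of 0.25 for the members and 0.11 over all genes. For Fos the log2 fold change was -0.19, with a 95% interval from -2.54 to 2.15, so that changes of more than 4-fold either way lie within it. For Arc it was 0.63 with an interval from -1.24 to 2.51, and for Dusp1 0.53, from -1.07 to 2.13. For Egr1 it was 0.18, from -0.73 to 1.09, for Nr4a1 0.04, from -1.09 to 1.18, for Junb -0.07, from -0.93 to 0.79, and for Npas4 0.34, from -0.45 to 1.12. Narrower intervals were those of Homer1, 0.27 from -0.13 to 0.67, Jund, 0.02 from -0.33 to 0.37, and Plk2, -0.00 from -0.36 to 0.35.

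**Figure D4:**
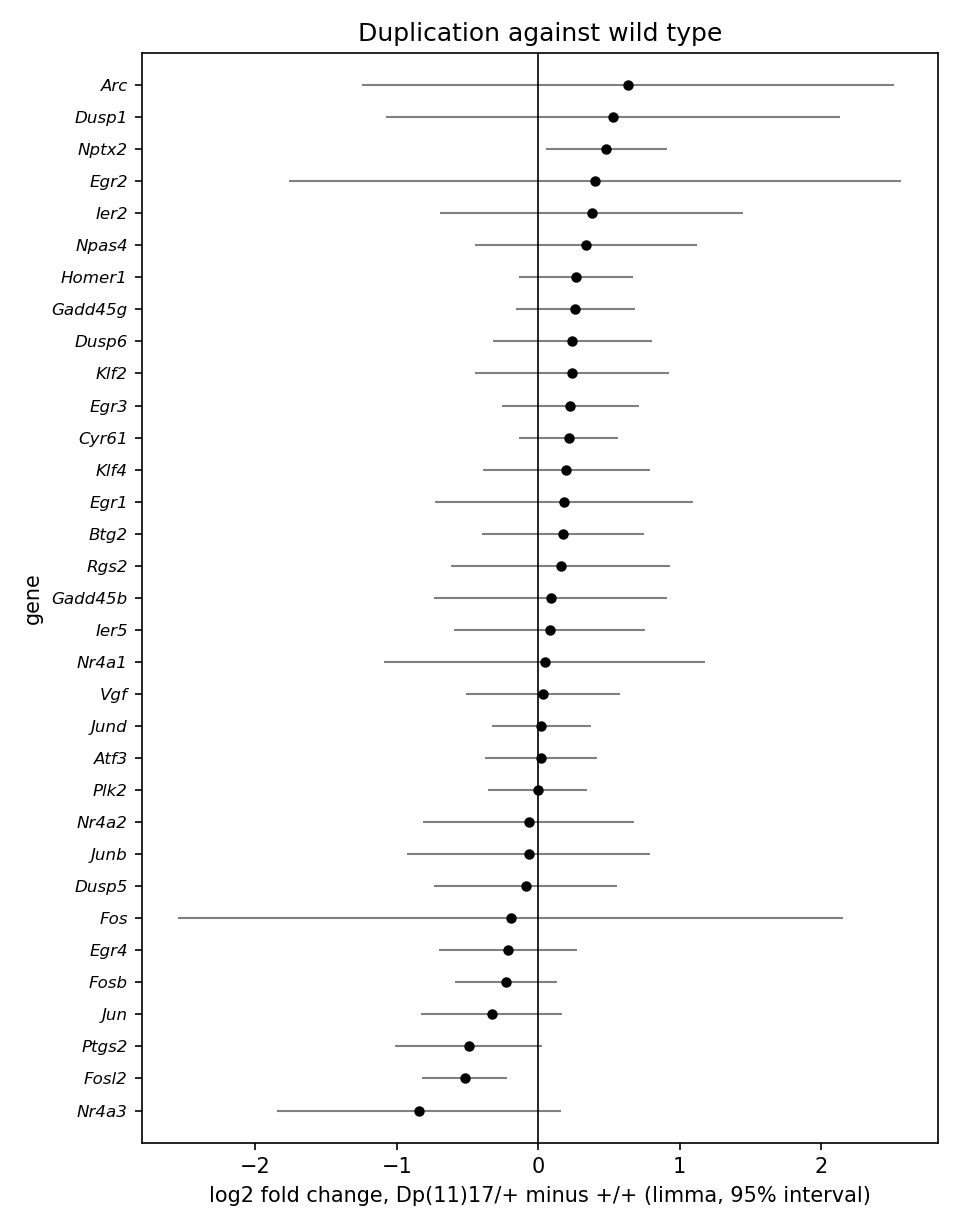
Points give the log2 fold change of each of the 33 genes, Dp(11)17/+ minus +/+, and lines its 95% interval by limma (horizontal axis), ordered by fold change. The intervals of Fosl2 and Nptx2, neither of which passed after adjustment, are the only ones that leave out 0.

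The 2 groups did not overlap for 3 of the 33, or 9.09%, against 8.29% of all genes, a share near the background. The 3 genes were Fosl2, Nr4a3 and Ptgs2, all lower in the duplication mice, where 5.59% of all genes stood apart in that direction and 2.7% in the other. Fosl2, a slower and longer-lived relative of Fos, had values of 6.32, 6.10 and 5.87 in the duplication mice and 6.70, 6.52 and 6.64 in the wild-type mice. The means were 6.10 ± 0.23 and 6.62 ± 0.09 (SD, n = 3), a log2 fold change of -0.52 (SE 0.13, limma adjusted p = 0.994). It lay between -0.63 and -0.41 with any 1 mouse left out. Its dimmer probe set gave -0.03 with overlapping groups, so the probe sets of Fosl2 disagreed.

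Nr4a3, a sister of Nr4a1, had 8.37, 8.40 and 6.73 in the duplication mice and 8.60, 8.58 and 8.85 in the wild-type mice. Most of its log2 fold change of -0.84 (SE 0.42, limma adjusted p = 0.994) came from duplication replicate 3, and it was -0.29 without that mouse. Its 2 other probe sets, both dim, gave 0.04 and -0.09 with overlapping groups. Ptgs2, the inducible cyclooxygenase of excitatory neurons, had 4.78, 5.0 and 4.11 in the duplication mice and 5.03, 5.07 and 5.27 in the wild-type mice. Its log2 fold change was -0.49 (SE 0.22, limma adjusted p = 0.994), -0.50 at its second probe set, where the groups overlapped, and -0.23 without duplication replicate 3. Jun, whose product pairs with Fos, was likewise lowest in that mouse, at 6.62 against 6.96 to 7.51. Duplication replicate 3 was also the mouse with the lowest marker means for dentate granule cells (3.69) and CA1 pyramidal cells (6.72 against 7.49 to 8.50), and the part of tissue makeup in these 3 genes was not tested.

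Nptx2, a secreted pentraxin that gathers AMPA receptors, had 6.64, 6.41 and 6.81 in the duplication mice and 6.02, 6.51 and 5.89 in the wild-type mice. The groups overlapped in 1 pair, wild-type replicate 2 standing above duplication replicate 2. Duplication replicates 3 and 1 and wild-type replicate 2 were thus the 3 highest mice. The striatal marker mean was highest in the same 3, at 7.27, 6.35 and 5.71, and its part in Nptx2 was not tested. The log2 fold change was 0.48 (SE 0.18, limma adjusted p = 0.994). Its dimmer probe set gave 0.10.

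**Figure D5:**
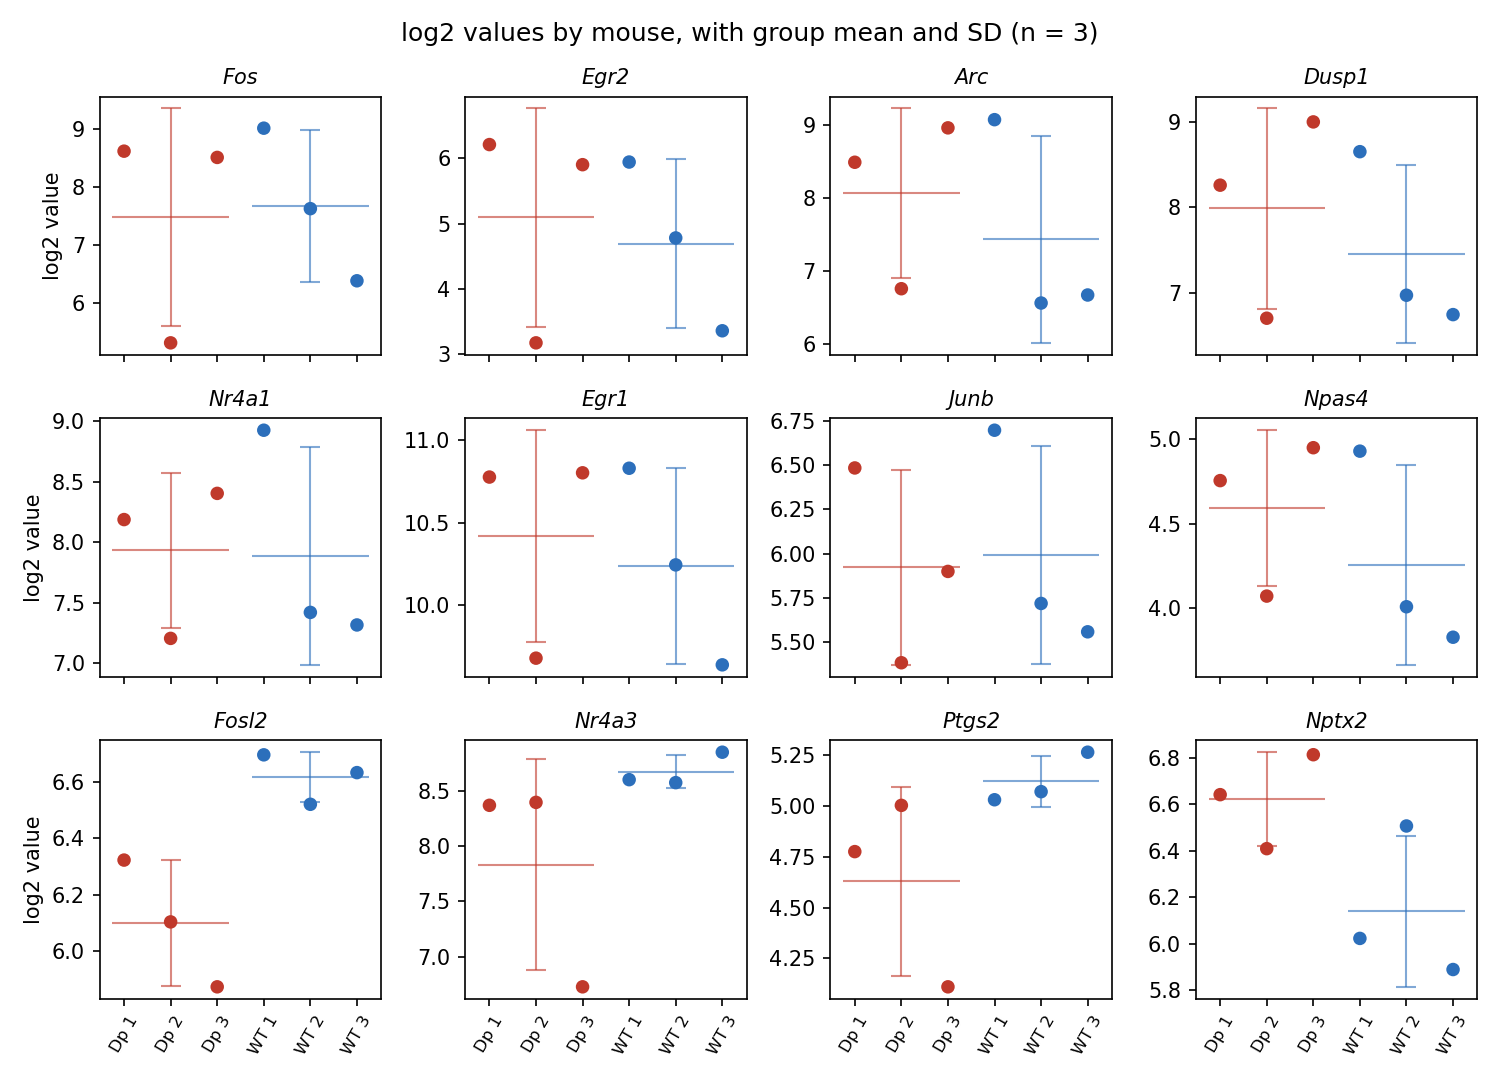
Points give the log2 value of 12 immediate early genes in each mouse (red, Dp(11)17/+; blue, +/+), with group means as horizontal lines and SD as bars (n = 3); vertical scales differ between panels and do not start at 0. In the upper 8 genes duplication replicates 1 and 3 and wild-type replicate 1 are the 3 highest mice, and in the lower row Fosl2 separates the groups while Nr4a3 and Ptgs2 are low in duplication replicate 3. The genes shown are a choice, with Egr2 included after its values were seen. Homer1 is left out, as are Fosb and other members with another order.

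The counts turned on the probe sets used and on single mice. With the mean of all probe sets of each gene, 0 of the 33 had an unadjusted p under 0.05 by limma, 0 passed after adjustment, and 0 had groups that stood apart. Without wild-type replicate 1, whose immediate early genes were the highest of its group, 7 of the 33 had an unadjusted p under 0.05, against 4.93% of all genes in that fit, and the groups stood apart for 11, against 21.1%. Of those 7, Npas4, Dusp5, Dusp6, Btg2 and Cyr61 were higher in the duplication mice and Fosl2 and Jun lower. Without duplication replicate 2, 5 had an unadjusted p under 0.05, against 8.15% of all genes, and 6 stood apart, against 24.9%. Leaving out duplication replicate 1, the mouse whose sex-linked genes went against its label, gave 2 and 4, against 2.64% and 16.2% of all genes, and leaving out duplication replicate 3 gave 2 and 3, against 2.15% and 15.6%. In each of these fits 0 members passed limma after adjustment. The sign for Fos itself turned: its log2 fold change was 0.89 once duplication replicate 2 was left out and 0.48 once wild-type replicate 1 was.

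The genes around the members were compared in the same fit. Of 20 upstream genes, 17 were measured, among them Srf, Creb1, Crtc1 and the MEF2 factors, and 11 were higher in the duplication mice with a median log2 fold change of 0.04. None of the 17 passed limma after adjustment, and 0 had an unadjusted p under 0.05. The smallest unadjusted p belonged to Camkk2, a calcium-dependent kinase, with a log2 fold change of 0.65 (SE 0.33), followed by Camk4, the nuclear kinase of CREB, with 0.45 (SE 0.29), and Elk4, an SRF partner, with 0.14 (SE 0.09). The median range over the mice was 0.57 in this list. Of 21 other activity-regulated genes, 19 were measured and 11 were higher, with a median of 0.12 and a median range of 0.72. None passed after adjustment and 1 had an unadjusted p under 0.05, Trib1, a pseudokinase, with a log2 fold change of 0.49 (SE 0.21). It was followed by Errfi1, a brake on EGF receptors, with -0.44 (SE 0.19), and Klf6, a zinc finger factor, with 0.47 (SE 0.24). In these 19 genes duplication replicate 3 was among the 3 highest mice in 13, duplication replicate 1, wild-type replicate 1 and wild-type replicate 2 in 11 each, duplication replicate 2 in 8 and wild-type replicate 3 in 3. The mean deviation of the list was 0.09 in wild-type replicate 1 and -0.15 in wild-type replicate 3, smaller than the 0.35 and -0.32 of the immediate early genes.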

How the data were processed

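RNA of 6 mouse hippocampi, 1 array each, was labelled with biotin and measured on Affymetrix arrays. Each sample record names hippocampus and 1 individual, which were used here, whereas the labels' protocols list other organs for extraction and mention pools for labelling. The deposited values are log2, made by the authors with RMA per the submitters' processing notes, and were used as deposited, with medians of 3.74 to 3.79 per array. No source used here gives its version. From these, 64 control probe sets were left out and 45037 tested, of which 34945 had 1 gene symbol, 932 several and 9160 none. Symbols were updated through the Entrez identifier in a RefSeq gene table of GRCm38.p6, which held 34741 of the 34945.

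The groups were compared by limma 3.58.1 in R 4.3.3 (lmFit, eBayes without trend, two-sided, 7.11 degrees of freedom), with Benjamini-Hochberg adjustment over all probe sets at 0.05, and tested on simulated data. Mouse orders, ranges and correlations are descriptions with no test. The members, lists and tests were chosen with earlier results of these data known. Values in every mouse were given by rule for Fos, Fosb, Junb, Egr1, Arc, Npas4, Nr4a1, Homer1 and Dusp1, for members with an unadjusted p under 0.05 or groups apart, and for the 5 widest ranges at a mean of 6 or more, and for Egr2 after its values were seen. The number of arrays limits precision. Alternatives were each mouse left out, other scalings, probe set choices, a floor and other statistics.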

Additional observations from a re-analysis of the deposited data

How the results depend on the processing

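No member passed limma after adjustment in any alternative that gave a p: each mouse left out, quantile normalization again, centring, the mean of all probe sets of a gene, a floor of 6, a trend with robust prior, the plain statistic and array weights. At an unadjusted p under 0.05 by limma there were 2 to 7 members with 1 mouse left out, where 2.15% to 8.15% of all genes were at that level. There was 1 by the plain statistic, without a share over all genes, and 0 with the mean of all probe sets. Members whose groups stood apart numbered 3 to 11 of 33 with 1 mouse left out, where 15.5% to 24.9% of all genes stood apart, and 0 with the mean of all probe sets. The striatal, thalamic and choroid plexus marker means of duplication replicate 2 lay below the wild-type mean but within the wild-type range. Its dentate and CA1 marker means were the highest of the 6 mice, at 7.60 and 8.50, and its neocortical mean the lowest, at 6.00. That mouse alone lay outside the wild-type range for 17 members, or 51.5%, against 48.8% of all genes. The median difference was -0.24 against -0.02. The median log2 fold change was 0.0024 to 0.29 with 1 mouse left out. The median pairwise correlation was 0.27 to 0.39 with 1 mouse left out, an alternative added after seeing the data.

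The sign held in all 9 alternatives for 16 of the 33 members and turned in at least 1 for 17. With 1 mouse left out the log2 fold changes of these 17 were -0.84 to 0.89 for Fos, -0.35 to 0.28 for Junb, -0.11 to 0.18 for Jund, -0.12 to 0.55 for Egr1, -0.27 to 1.36 for Egr2, -0.016 to 0.41 for Egr3, -0.38 to 0.018 for Egr4, -0.24 to 0.56 for Nr4a1, -0.33 to 0.24 for Nr4a2, -0.24 to 0.25 for Ier5, -0.28 to 0.26 for Dusp5, -0.051 to 0.45 for Btg2, -0.31 to 0.43 for Gadd45b, -0.11 to 0.22 for Atf3, -0.11 to 0.27 for Vgf, -0.079 to 0.51 for Rgs2 and -0.15 to 0.13 for Plk2. With the mean of all probe sets the sign turned for Jund (-0.046), Nr4a2 (0.016), Gadd45b (-0.076) and Plk2 (0.011), and the cause was not tested. For members with 1 probe set, such as Fos and Arc, that mean is the value as reported, so it could not turn the sign. No paired analysis was possible because the labels give no replicate numbers shared between the groups. With 3 mice a group and a median standard error of 0.25, changes of about that size in these genes could not be resolved. Larger ones, such as -0.84 for Nr4a3 and 0.63 for Arc, did not pass limma after adjustment either. Their own standard errors were above that median, at 0.42 and 0.80, so the size that could be resolved differed between genes.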
